A study of Mus musculus with 15 samples.

Results

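A set of 9 genes that mark endothelial cells and carry their junctions and growth factor signals was followed across 4 groups of mouse aortic valves: Pecam1, Cdh5 and Cldn5 at cell junctions, the receptors Kdr, Flt1, Tek, Tie1 and Eng, and the secreted clotting protein Vwf. They were chosen by gene symbol, and all 9 were found once each among the 18073 genes of the deposited expression table. The valves came from C57BL/6 mice aged 2 months. Heterozygous short-telomere valves (N1het_TercG2, 4 mice) carried, by their label, 1 of 2 copies of Notch1 and came from generation 2 mice null for Terc, the telomerase RNA. Wild type short-telomere valves (N1WT_TercG2, 3 mice) had both Notch1 copies on the same Terc-null background, heterozygous long-telomere valves (N1het_TercWT, 4 mice) had 1 Notch1 copy with intact Terc, and wild type long-telomere valves (N1WT_TercWT, 4 mice) carried neither change. The labels do not say how the Notch1 allele was made or whether littermates were used. Short and long telomeres are used here as names for the Terc-null and intact Terc groups. No telomere length is among the values used, and loss of Terc itself cannot be told apart from telomere shortening. The series asks whether telomere length alters what loss of 1 Notch1 copy does.

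The endothelium is the sheet of cells that lines vessels, heart chambers and both faces of each valve leaflet. Its cells hold together through VE-cadherin, PECAM1 and claudin 5. They take survival and growth signals from VEGF through the kinases VEGFR2 (Kdr) and VEGFR1 (Flt1) and from angiopoietins through TIE2 (Tek) and its partner TIE1, and endoglin (Eng) serves as a co-receptor for BMP9, BMP10 and TGF-beta. In valves the endothelium also signals to the interstitial cells beneath it through Notch, and during development some endothelial cells of the valve cushions turn into mesenchyme.

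The table gives 1 FPKM value per gene and group, that is, sequenced fragments divided by transcript length and by library size, so that levels can be compared between genes. The values are the authors' pooled values with no value per mouse, so no difference below carries an error or a replicate check, and read depth is unknown. Fewer endothelial cells in a leaflet and less RNA of a gene per cell cannot be told apart in such bulk RNA. Valve interstitial markers were high in every group, with Vim between 1229 and 1339 FPKM and Dcn between 2255 and 4698 FPKM, and heart muscle RNA was present throughout, with Tnnt2 between 1172 and 1489 FPKM. For the telomerase RNA the short-telomere groups were each listed at 0, while heterozygous long-telomere valves had 4.52 FPKM and wild type long-telomere valves 1.42 FPKM. Notch1 stood at 23.3 FPKM in heterozygous and 16.6 FPKM in wild type valves with short telomeres, and at 25.1 FPKM in heterozygous and 39.1 FPKM in wild type valves with long telomeres. In the short-telomere pair the library group labelled heterozygous therefore had more Notch1 RNA than the one labelled wild type, and heterozygous and wild type below are the labels' words.

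Most of the 9 genes were highest in heterozygous short-telomere valves and lowest in heterozygous long-telomere valves. Of the 9, 6 had their highest value in heterozygous short-telomere valves, where 25.6% of the 6843 genes with a mean of at least 10 FPKM, called expressed genes below, had theirs. Of the 9, 7 had their lowest value in heterozygous long-telomere valves, where 16.4% of expressed genes had theirs. The geometric mean of the 9 genes was 43.3 FPKM in heterozygous short-telomere valves, 41.9 FPKM in wild type short-telomere valves, 20.0 FPKM in heterozygous long-telomere valves and 28.8 FPKM in wild type long-telomere valves. The exceptions were Eng, which was lowest in wild type short-telomere valves, Tie1 and Eng, which were highest in wild type long-telomere valves, Pecam1, which was lowest there, and Vwf, which was highest in wild type short-telomere valves. These orders are those of the deposited values. With the groups scaled to the same median, Eng was lowest in heterozygous long-telomere valves and Tie1 highest in heterozygous short-telomere valves. The ratio of the highest to the lowest group ran from 1.52 for Pecam1 to 7.64 for Cldn5. None of the 9 genes was called different in any of the 5 comparisons marked in the authors' deposited table. Such calls were rare among all genes: 0.415% for heterozygous against wild type with long telomeres, 0.476% for the same with short telomeres, 0.686% for short against long telomeres in wild type, 0.432% for the same in heterozygotes, and 0.526% for both changes against neither.

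Markers of other cells differed between the same groups. The 7 T cell and thymocyte genes summed to 18.1 FPKM in heterozygous and 119 FPKM in wild type short-telomere valves, and to 929 FPKM in heterozygous and 104 FPKM in wild type long-telomere valves, so they were highest in the group in which most of the 9 genes were lowest. The authors' deposited table called 5 of these 7 higher in heterozygous than in wild type valves with long telomeres. The 6 smooth muscle genes summed to 394 and 566 FPKM in heterozygous and wild type short-telomere valves, and to 203 and 1142 FPKM in heterozygous and wild type long-telomere valves. The 8 macrophage genes summed to 2767 and 1373 FPKM in heterozygous and wild type short-telomere valves, and to 1541 and 1067 FPKM in heterozygous and wild type long-telomere valves, highest where 6 of the 9 genes were highest. No gene of these 3 lists was at 0 in any group. Mitochondrial genes took 8.83% and 7.63% of all FPKM in heterozygous and wild type short-telomere valves, and 2.89% and 3.10% in heterozygous and wild type long-telomere valves. The part of these differences in the values of the 9 genes was not tested.

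**Figure D1:**
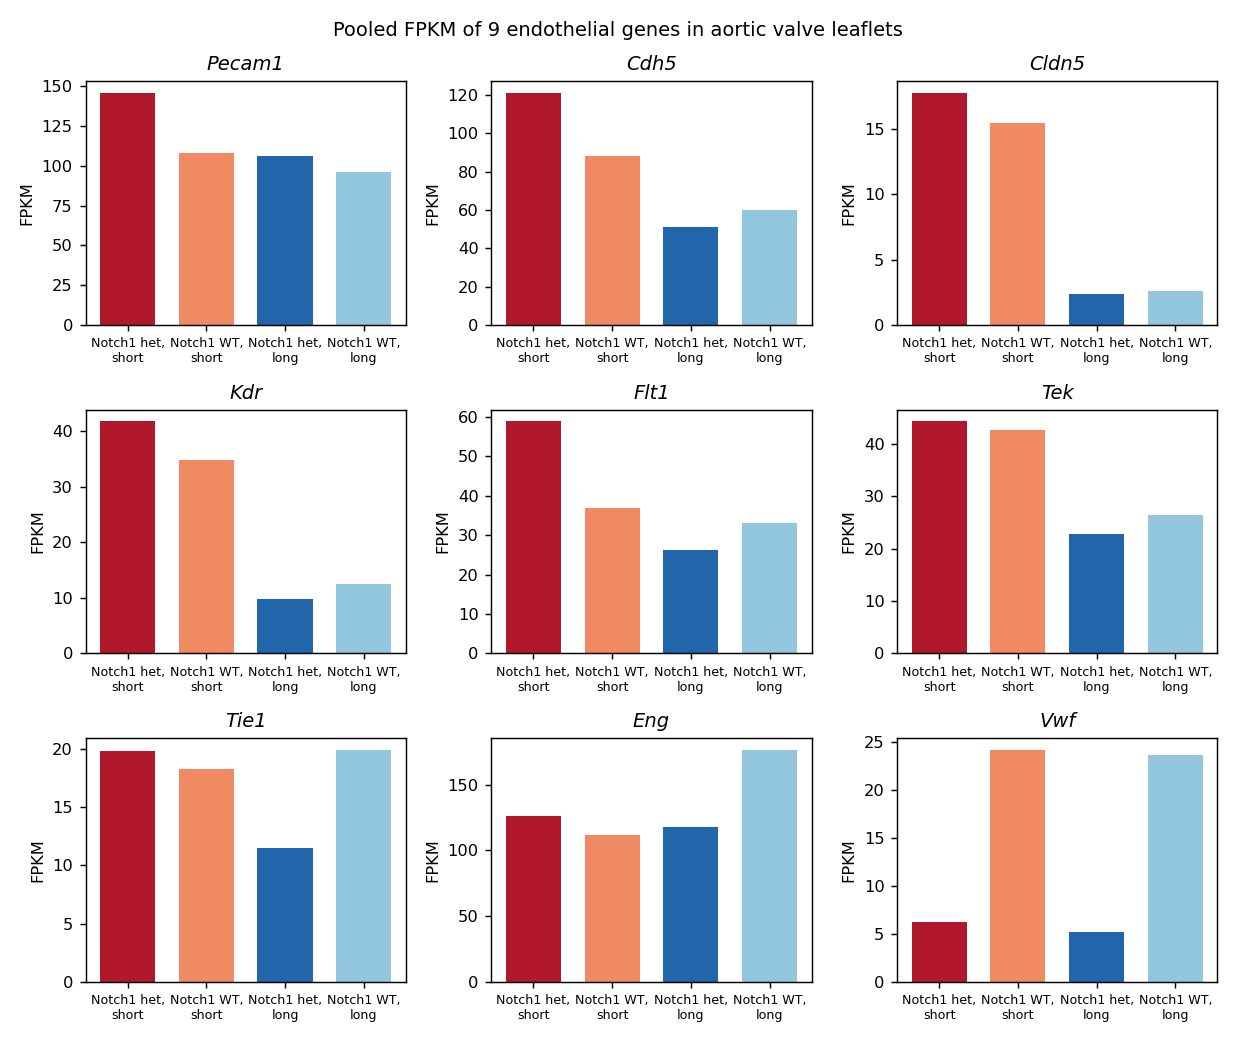
Pooled FPKM of each of the 9 genes (vertical axes, from 0) in the 4 groups of valves, with het for Notch1 heterozygous, WT for Notch1 wild type, and short or long for telomeres. Each bar is 1 pooled value with no error; Cldn5 and Kdr separate the short-telomere from the long-telomere groups, and Vwf separates the heterozygous from the wild type groups.

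Among the junction genes, Cldn5 and Cdh5 were higher in both short-telomere groups, while Pecam1 varied little. Pecam1 (ENSMUSG00000020717) encodes the adhesion protein CD31, which sits at endothelial cell borders and also on platelets and leukocytes. It stood at 146 FPKM in heterozygous and 108 FPKM in wild type valves with short telomeres, and at 106 FPKM in heterozygous and 96.1 FPKM in wild type valves with long telomeres. Heterozygous short-telomere valves stood above the other 3 groups, which lay close together in the deposited values. Cdh5 (ENSMUSG00000031871) encodes VE-cadherin, the adhesion protein of endothelial adherens junctions. Its level was 121 FPKM in heterozygous and 88.3 FPKM in wild type short-telomere valves, and 50.9 FPKM in heterozygous and 59.7 FPKM in wild type long-telomere valves. The order of the Notch1 genotypes was thus opposite in the 2 telomere settings.

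Cldn5 (ENSMUSG00000041378), which encodes the claudin that seals endothelial tight junctions and is most abundant in vessels of the brain, was the least abundant of the 9 genes in both long-telomere groups. It stood at 17.8 FPKM in heterozygous and 15.5 FPKM in wild type short-telomere valves, against 2.33 FPKM in heterozygous and 2.60 FPKM in wild type long-telomere valves. The short-telomere values were 7.64-fold those with long telomeres in heterozygotes and 5.97-fold in wild type. Both ratios were above the smallest ratio among genes called in the same comparison of the authors' deposited table, 4.79 in heterozygotes and 4.54 in wild type, although Cldn5 was not called. The ratio of Cldn5 to Cdh5 was 0.147 and 0.175 in heterozygous and wild type short-telomere valves, and 0.0457 and 0.0434 in heterozygous and wild type long-telomere valves, so claudin 5 RNA differed more between the telomere settings than VE-cadherin RNA did.

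Of the 16 measured genes of junction partners, none was called in the authors' deposited table. Esam, Pvrl2 and Jam3 were among those with the widest range across groups. Esam, an endothelial adhesion protein, stood at 55.7 FPKM in heterozygous and 24.2 FPKM in wild type short-telomere valves, and at 17.3 and 16.0 FPKM in heterozygous and wild type long-telomere valves. Jam3, a junctional adhesion molecule, had its highest value, 21.1 FPKM, in wild type short-telomere valves. Pvrl2, which encodes nectin 2, stayed under 2 FPKM in each group. For short against long telomeres in heterozygotes, 12 of the 16 partners were higher, as were 34.3% of all and 44.9% of expressed genes. The partners' median log2 fold was 0.44, where the log2 fold is that of FPKM + 1. The median was -0.24 for all and -0.079 for expressed genes. In wild type valves 8 of the 16 were higher, as were 36.6% of all and 46.1% of expressed genes. The partners' median there was 0.037, against -0.23 for all and -0.066 for expressed genes.

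The VEGF receptors differed from each other: Kdr was higher in both short-telomere groups, and Flt1 mainly in the heterozygous one. Kdr (ENSMUSG00000062960) encodes VEGFR2, the main signalling receptor for VEGF-A in endothelium. It stood at 41.9 FPKM in heterozygous and 34.8 FPKM in wild type short-telomere valves, against 9.87 FPKM in heterozygous and 12.6 FPKM in wild type long-telomere valves. The lower of the short-telomere values was above the higher of the long-telomere ones by 2.77-fold. Flt1 (ENSMUSG00000029648) encodes VEGFR1, which binds VEGF-A tightly but signals weakly and also occurs as a soluble decoy that a gene-level FPKM does not separate. Its level was 59.0 FPKM in heterozygous and 36.8 FPKM in wild type short-telomere valves, and 26.3 FPKM in heterozygous and 33.2 FPKM in wild type long-telomere valves. Wild type valves of the 2 telomere settings differed in Flt1 by 10.8%. The ratio of Kdr to Flt1 was 0.710 and 0.945 in heterozygous and wild type short-telomere valves, and 0.376 and 0.378 in heterozygous and wild type long-telomere valves. The receptor pair therefore held almost the same ratio in the long-telomere groups and a higher one in each short-telomere group.

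None of the 5 VEGF ligands was called in the authors' deposited table, and 1 of them, Figf, was higher in both short-telomere groups, as Kdr was. Vegfa stood at 27.2 and 22.7 FPKM in heterozygous and wild type short-telomere valves, and at 25.4 and 47.0 FPKM in heterozygous and wild type long-telomere valves, so wild type long-telomere valves stood alone at the top. Vegfb ranged from 33.7 to 42.0 FPKM, Vegfc from 9.94 to 19.9 FPKM and the placental growth factor Pgf from 5.22 to 8.97 FPKM. Figf, which encodes VEGF-D, was at 8.10 and 10.2 FPKM in heterozygous and wild type short-telomere valves, and at 6.22 and 7.81 FPKM in heterozygous and wild type long-telomere valves. The co-receptor Nrp2, a neuropilin, was at 25.9 and 15.9 FPKM in heterozygous and wild type short-telomere valves, and at 8.05 and 7.05 FPKM in heterozygous and wild type long-telomere valves, an order like that of Kdr for the telomere settings. Nrp1 was highest in heterozygous short-telomere valves, at 79.6 FPKM, and between 37.7 and 53.4 FPKM in the other groups. Flt4, the VEGFR3 of lymphatic and some valve endothelium, ranged from 9.78 to 14.5 FPKM.

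**Figure D2:**
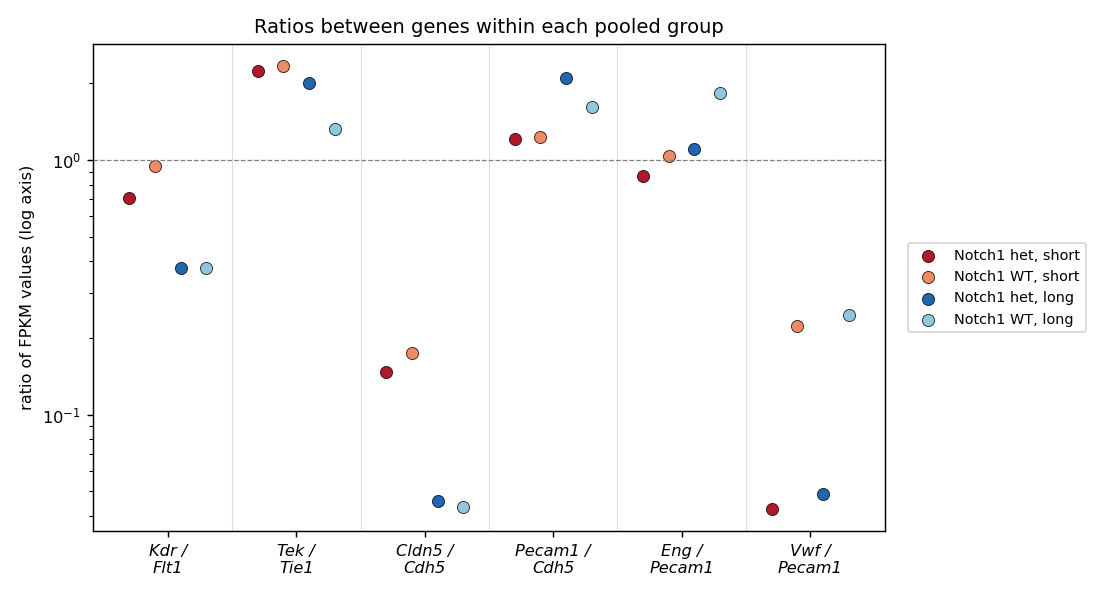
Ratios of FPKM between pairs of the 9 genes within each group (log axis), with 1 pooled value per point and the dashed line at 1. The Kdr to Flt1 and Cldn5 to Cdh5 ratios are higher in the short-telomere groups, and the Vwf to Pecam1 ratio is lower in the heterozygous groups.

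The upstream sequences of 4 genes are given because they span the behaviours seen here: Kdr and Cldn5, the pair with the largest ratios of short to long telomeres, Flt1, the second VEGF receptor, and Eng, which was lower with short telomeres in wild type valves. Each is the 250 bases before the gene start, 5′ to 3′ on the gene's own strand, from RefSeq on build GRCm38.p6. The windows are chr5:75978456-75978705 on the minus strand for Kdr, chr5:147726012-147726261 on the minus strand for Flt1, chr16:18776597-18776846 on the plus strand for Cldn5 and chr2:32646345-32646594 on the plus strand for Eng. Capitals mark matches on either strand to AGGAAG or CGGAAG, letters of the ETS family of transcription factors, or to GTGGGAA, letters of RBPJ, the DNA-binding partner of Notch.
Kdr: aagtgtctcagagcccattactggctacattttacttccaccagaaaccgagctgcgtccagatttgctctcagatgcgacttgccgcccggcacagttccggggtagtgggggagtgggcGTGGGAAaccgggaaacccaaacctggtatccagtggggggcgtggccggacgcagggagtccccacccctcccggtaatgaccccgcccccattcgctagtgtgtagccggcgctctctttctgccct
Flt1: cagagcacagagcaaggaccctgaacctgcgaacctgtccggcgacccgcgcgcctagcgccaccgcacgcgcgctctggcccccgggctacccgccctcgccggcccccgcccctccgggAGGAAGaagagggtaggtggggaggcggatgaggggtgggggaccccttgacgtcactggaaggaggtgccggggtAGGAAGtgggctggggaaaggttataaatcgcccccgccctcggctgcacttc
Cldn5: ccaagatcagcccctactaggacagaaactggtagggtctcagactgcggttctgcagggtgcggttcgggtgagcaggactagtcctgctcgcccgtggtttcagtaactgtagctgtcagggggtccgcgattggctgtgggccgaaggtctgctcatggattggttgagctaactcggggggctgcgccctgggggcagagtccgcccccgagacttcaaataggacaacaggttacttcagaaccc
Eng: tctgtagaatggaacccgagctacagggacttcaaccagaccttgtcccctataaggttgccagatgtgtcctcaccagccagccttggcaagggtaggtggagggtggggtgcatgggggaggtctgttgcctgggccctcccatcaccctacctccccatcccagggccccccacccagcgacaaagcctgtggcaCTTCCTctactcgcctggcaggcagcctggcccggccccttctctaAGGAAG

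Promoter windows were found for 6 of the 9 genes, and not for Pecam1, Cdh5 and Vwf. The RBPJ letters GTGGGAA were present in 2 of the 6, Kdr and Tie1, against 5.42% of 32851 mouse promoter windows of the same length. The ETS letters were present in 3 of the 6, Flt1, Eng and Tie1, against 39.2% of all windows. The GATA letters AGATAA and TGATAA were in none of the 6 and in 16.6% of all windows with either. The KLF letters GGGTG were in each of the 6 and in 52.0% of all windows, and in Tie1 such a match overlaps the RBPJ match. The Kdr match lies 129 to 123 bases before the gene start, and Cldn5 and Tek held no match to the ETS, GATA or RBPJ letters within the window.

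The TIE receptors, which work as a pair on the cell surface, also differed from each other. Tek (ENSMUSG00000006386), the angiopoietin receptor TIE2, stood at 44.4 FPKM in heterozygous and 42.7 FPKM in wild type short-telomere valves, against 22.9 FPKM in heterozygous and 26.4 FPKM in wild type long-telomere valves. The values formed a short-telomere and a long-telomere pair that did not overlap. Tie1 (ENSMUSG00000033191), which is regarded as an orphan receptor that modulates TIE2, was at 19.9 FPKM in heterozygous and 18.3 FPKM in wild type short-telomere valves, and at 11.5 FPKM in heterozygous and 20.0 FPKM in wild type long-telomere valves. Heterozygous long-telomere valves stood below the other 3 groups, which were alike. The ratio of Tek to Tie1 was 2.23 and 2.33 in heterozygous and wild type short-telomere valves, and 1.99 and 1.32 in heterozygous and wild type long-telomere valves.

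Of the angiopoietins, Angpt1, the activating ligand of TIE2, stood at 9.08 and 8.11 FPKM in heterozygous and wild type short-telomere valves, and at 7.12 and 15.0 FPKM in heterozygous and wild type long-telomere valves. Angpt2, which endothelial cells store and release, ranged from 4.13 to 5.97 FPKM, with its lowest value in heterozygous long-telomere valves, the group in which Tie1 was also lowest. Angpt4 was listed at 0 in each short-telomere group and at 0.365 and 1.46 FPKM in heterozygous and wild type long-telomere valves. Values of 0 were more common in the short-telomere groups in general. They were listed for 1181 and 2010 genes in heterozygous and wild type short-telomere valves, against 250 and 705 genes in heterozygous and wild type long-telomere valves. Ptprb, the phosphatase VE-PTP that acts on TIE2 and VE-cadherin, was at 129 FPKM in heterozygous short-telomere valves and between 72.0 and 84.2 FPKM elsewhere. None of these 4 genes was called in the authors' deposited table.

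Eng was the most abundant of the 9 genes in the long-telomere groups and was highest where neither change was present. Eng (ENSMUSG00000026814) stood at 126 FPKM in heterozygous and 112 FPKM in wild type short-telomere valves, and at 118 FPKM in heterozygous and 177 FPKM in wild type long-telomere valves. The 3 groups with 1 or both changes lay within 112 to 126 FPKM, a closeness that depended on the scaling. Over wild type long-telomere valves, the log2 folds of Eng were -0.58 in heterozygous long-telomere, -0.65 in wild type short-telomere and -0.48 in heterozygous short-telomere valves. With the groups scaled to the same median they were -0.71, -0.38 and -0.18, so heterozygous long-telomere valves were then lowest. In wild type valves the short-telomere level was 0.633 times the long-telomere level for Eng and 1.13 times for Pecam1. The ratio of Eng to Pecam1 was 0.865, 1.03 and 1.11 in heterozygous short-telomere, wild type short-telomere and heterozygous long-telomere valves, against 1.84 in wild type long-telomere valves.

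Among the 9 ligands and partners of endoglin, Bmp10 was the 1 gene called in the authors' deposited table. Bmp10, an atrial ligand of the endoglin receptor complex, was listed at 0 with short telomeres in either genotype and stood at 0.162 FPKM in heterozygous and 35.9 FPKM in wild type long-telomere valves, and it was called lower with each change alone and with both against neither. The atrial light chain gene Myl7 was at 129, 47.1, 13.0 and 216 FPKM in heterozygous short-telomere, wild type short-telomere, heterozygous long-telomere and wild type long-telomere valves, and it was picked from a list of 7 heart muscle genes after its value was seen. Of the other 6 genes on that list, 5 were lowest in wild type long-telomere valves, where Bmp10, Myl7 and Eng were highest: Myh6 (392 FPKM), Tnnt2 (1172 FPKM), Tnni3 (231 FPKM), Actc1 (758 FPKM) and Myl2 (254 FPKM). Tnnt2 was level with heterozygous long-telomere valves (1173 FPKM), and Myh6 was close to wild type short-telomere valves (399 FPKM). The part of atrial tissue in the Eng values was not tested. Gdf2 (BMP9) stayed at or under 1.50 FPKM. The receptor Acvrl1 (ALK1) ranged from 6.41 FPKM in heterozygous long-telomere valves to 13.0 FPKM in heterozygous short-telomere valves, Tgfbr1 from 21.6 to 33.7 FPKM, Tgfbr2 from 35.8 to 44.5 FPKM and Bmpr2 from 61.1 to 82.4 FPKM. Of the TGF-beta ligands, Tgfb1 was highest in wild type short-telomere valves at 72.4 FPKM, Tgfb2 lowest there at 12.2 FPKM, and Tgfb3 lowest in heterozygous long-telomere valves at 20.8 FPKM.

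Vwf was low in both heterozygous groups whatever the telomere setting, which none of the other 8 genes showed. Vwf (ENSMUSG00000001930) encodes von Willebrand factor, the multimeric protein that tethers platelets, made by endothelial cells and by the megakaryocytes that give rise to platelets. It stood at 6.21 FPKM in heterozygous and 24.2 FPKM in wild type short-telomere valves, and at 5.17 FPKM in heterozygous and 23.7 FPKM in wild type long-telomere valves. The wild type value was 3.90-fold the heterozygous one with short telomeres and 4.57-fold with long telomeres. The smallest ratios among genes called in these comparisons of the authors' deposited table were 4.30 and 4.67, so Vwf lay under both. In each genotype the telomere settings differed by little, 20.1% in heterozygotes and 2.32% in wild type.

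Platelet RNA moved in the same direction as Vwf. All 11 platelet genes were lower in heterozygous than in wild type valves in both telomere settings, and the authors' deposited table called 8 of them with short and 11 of them with long telomeres. Their summed level was 413 FPKM in heterozygous and 2110 FPKM in wild type short-telomere valves, and 130 FPKM in heterozygous and 3249 FPKM in wild type long-telomere valves, and none of the 11 was listed at 0 in any group. Mmrn1, a multimeric protein of platelets and endothelium placed here on a list of lymphatic markers, was at 4.78 and 24.4 FPKM in heterozygous and wild type short-telomere valves, and at 0.995 and 23.3 FPKM in heterozygous and wild type long-telomere valves. Pecam1, which platelets also carry, was 34.9% higher with short and 10.6% higher with long telomeres in heterozygous than in wild type valves. Cdh5 and Kdr differed between the genotypes by at most 1.37-fold in either setting.

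Some genes not on the platelet list were also lower in heterozygous valves in both telomere settings. Clec14a was picked from 24 other endothelial markers after its value was seen. It was at 18.5 and 42.8 FPKM in heterozygous and wild type short-telomere valves, and at 13.7 and 32.5 FPKM in heterozygous and wild type long-telomere valves. Most of that list differed from it: 18 of 24 were higher in heterozygous valves with short telomeres, as were 53.5% of all genes. With long telomeres 16 of 24 were lower, as were 43.6% of all genes. All 6 smooth muscle genes were lower in heterozygous than in wild type valves in both settings, with median log2 folds of -0.64 with short and -2.80 with long telomeres. With short telomeres they ran from -1.64 for Cnn1 to -0.047 for Tagln, which was almost level. All 5 mesothelial genes were lower too, with medians of -1.29 with short and -1.52 with long telomeres, and their sums were 5.63 and 21.2 FPKM in heterozygous and wild type short-telomere valves, and 12.8 and 49.4 FPKM in heterozygous and wild type long-telomere valves. None of the smooth muscle or mesothelial genes was at 0 in any group. The part of platelet, smooth muscle or mesothelial RNA in the Vwf values was not tested.

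**Figure D3:**
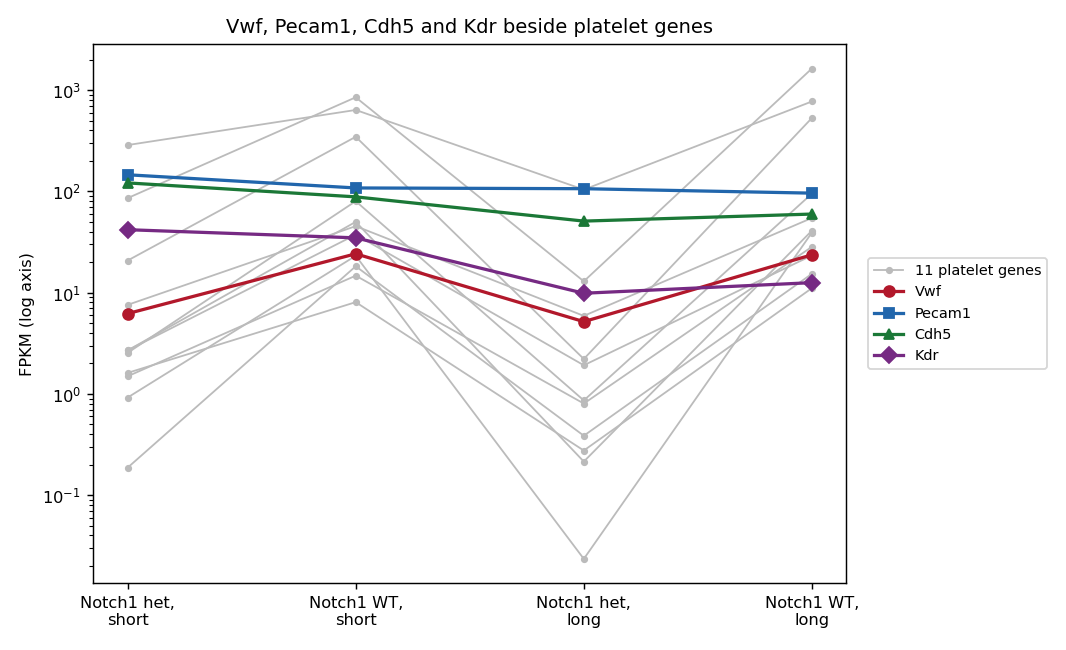
FPKM (log axis) of Vwf, Pecam1, Cdh5 and Kdr and of 11 platelet genes (grey) in the 4 groups, 1 pooled value per point; lines join the values of 1 gene and do not stand for a course in time. Vwf and the platelet genes are lower in both heterozygous groups, and Pecam1, Cdh5 and Kdr differ less between the genotypes; other genes split like Vwf, such as Clec14a, are not drawn.

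On a list of 7 genes of the granules that store von Willebrand factor, their cargo and its cleavage, none was lower in heterozygous valves in both telomere settings. None of the 7 was called in the authors' deposited table. Adamts13, which encodes the cleaving protease, stayed at or under 0.190 FPKM in each group, too low to show a split. Selp, the P-selectin of endothelial and platelet granules, stood at 8.72 and 27.3 FPKM in heterozygous and wild type short-telomere valves, and at 12.3 and 11.9 FPKM in heterozygous and wild type long-telomere valves. Edn1 (endothelin 1) was highest in heterozygous short-telomere valves at 27.8 FPKM, against 5.39 to 7.87 FPKM elsewhere. Cd63 was higher in both short-telomere groups, at 294 and 269 FPKM in heterozygous and wild type valves, against 193 and 157 FPKM in heterozygous and wild type long-telomere valves. Rab27a, which controls granule release, was lowest in wild type short-telomere valves at 4.56 FPKM.

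Valves labelled heterozygous for Notch1 had lower levels of most of these genes than those labelled wild type when telomeres were long, and higher levels of most when they were short. Notch1 RNA itself was lower in the valves labelled heterozygous with long telomeres and higher with short ones, so in the short-telomere pair it went against the labels. With long telomeres 8 of the 9 genes were lower in heterozygous than in wild type valves, as were 43.6% of all and 43.2% of expressed genes, and the median log2 fold of the 9 was -0.32 against 0.09 for all and 0.096 for expressed genes. Vwf (-2.00), Tie1 (-0.75) and Eng (-0.58) had the lowest log2 folds, and Pecam1 (0.14) was the gene that was higher. One of the 9 was more than 2-fold lower on this scale, Vwf, as were 7.53% of all and 5.14% of expressed genes. With short telomeres 8 of the 9 were higher in the valves labelled heterozygous, as were 53.5% of all and 53.3% of expressed genes, and the median log2 fold was 0.19 against 0.06 for all and 0.051 for expressed genes. Flt1 (0.67), Cdh5 (0.45) and Pecam1 (0.43) had the highest log2 folds, and Vwf (-1.80) was again past 2-fold lower, as were 10.8% of all and 9.24% of expressed genes. Of the 9 genes, 7 were lower in heterozygotes with long and higher with short telomeres, which held for 21.9% of all and 20.9% of expressed genes and for 10 of 24 other endothelial markers. Set against the median of those markers, the median of the 9 genes was -0.28 with short and -0.044 with long telomeres. With short telomeres Flt1 (0.20) was then the only gene above 0.

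The log2 fold of heterozygous over wild type valves was higher with short than with long telomeres for each of the 9 genes, as it was for 50.2% of all and 49.3% of expressed genes. It was also higher for 22 of 24 other endothelial markers, so the 9 genes shared this with their cell type's list. Set against the median of those markers, 6 of the 9 differences changed sign. The difference between the settings was 0.99 for Flt1, 0.86 for Tie1, 0.75 for Eng, 0.68 for Cdh5 and 0.58 for Kdr, and between 0.19 and 0.30 for Vwf, Tek, Pecam1 and Cldn5. The median difference was 0.58, against 0.0042 for all and -0.017 for expressed genes. No error can be given for these differences, and whether they exceed the spread between mice is unknown.

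**Figure D4:**
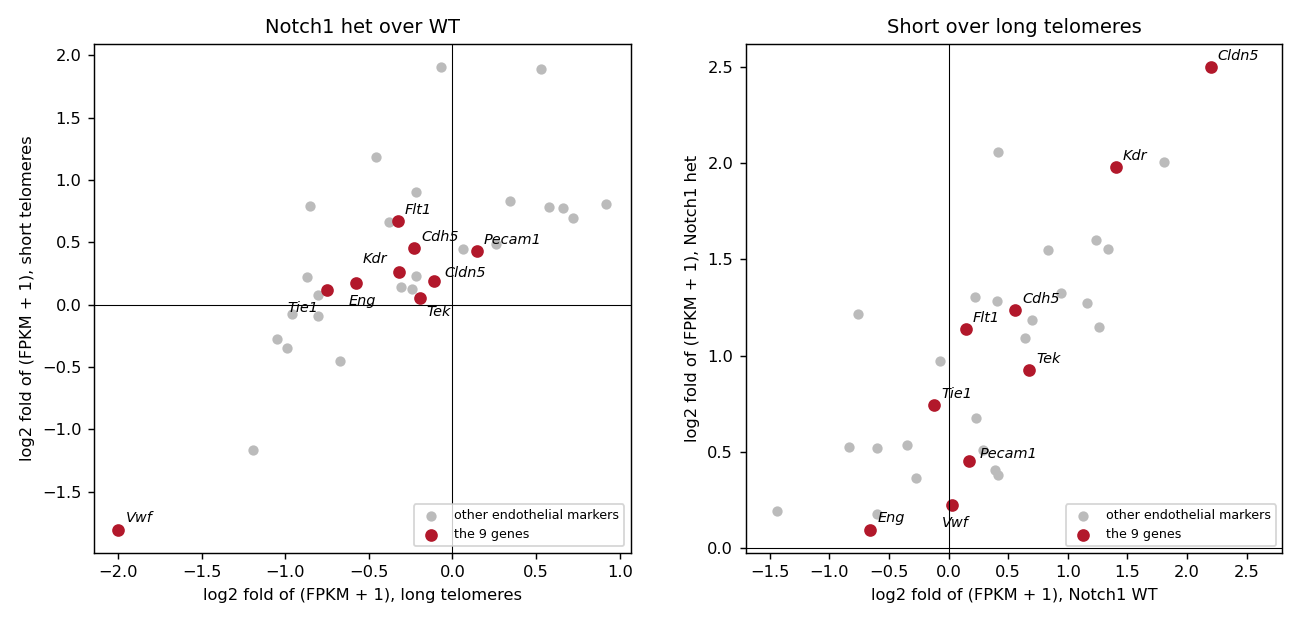
Log2 folds of FPKM + 1 for the 9 genes (red, named) and 24 other endothelial markers (grey); the left panel sets heterozygous over wild type with short telomeres (vertical) against long telomeres (horizontal), and the right panel sets short over long telomeres in heterozygous (vertical) against wild type valves (horizontal). Cldn5 and Kdr lie at the upper right of the right panel and Vwf at the lower left of the left panel.

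Short telomeres went with higher Cldn5, Kdr, Tek and Cdh5 in both Notch1 genotypes. In heterozygous valves each of the 9 genes was higher with short telomeres, as were 34.3% of all and 44.9% of expressed genes, with a median log2 fold of 0.93 against -0.24 for all and -0.079 for expressed genes. Cldn5 (2.50), Kdr (1.98), Cdh5 (1.24) and Flt1 (1.14) were more than 2-fold higher, as were 4.71% of all and 5.13% of expressed genes, and Eng (0.10) and Vwf (0.22) had the lowest values. In wild type valves 7 of the 9 were higher, as were 36.6% of all and 46.1% of expressed genes, with a median of 0.17 against -0.23 for all and -0.066 for expressed genes. Cldn5 (2.20) and Kdr (1.40) were past 2-fold, as were 8.9% of all and 8.84% of expressed genes, followed by Tek (0.67) and Cdh5 (0.56), while Eng (-0.65) and Tie1 (-0.12) were lower. Tie1 was higher, not lower, once the groups were scaled to the same median. Of the 9 genes, 7 were higher with short telomeres in both genotypes, which held for 16.1% of all and 24.6% of expressed genes. The Kdr log2 fold was above that of 95.6% of expressed genes in wild type and of 98.9% of them in heterozygous valves. Neutrophil and erythroid genes were also higher with short telomeres in both genotypes, 6 of 6 on each list. Other blood cell lists did not share this. In heterozygotes all 7 T cell and thymocyte genes were called lower with short telomeres, while 10 of 11 platelet and 7 of 8 macrophage genes were higher. In wild type 4 of 7 T cell and thymocyte genes were higher, and 8 of 11 platelet and 7 of 8 macrophage genes were lower. The neutrophil genes summed to 157 and 1743 FPKM in heterozygous and wild type short-telomere valves, and to 38.0 and 11.6 FPKM in heterozygous and wild type long-telomere valves, where Ngp and Camp were listed at 0 in wild type. The erythroid genes summed to 11052 and 21575 FPKM in heterozygous and wild type short-telomere valves, and to 4950.0 and 11720.1 FPKM in heterozygous and wild type long-telomere valves, with none at 0. Their part in the values of the 9 genes was not tested.

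In valves with both changes against valves with neither, 6 of the 9 genes were higher, as were 40.1% of all and 49.7% of expressed genes. The median log2 fold was 0.73 against -0.16 for all and -0.0049 for expressed genes. Cldn5 (2.39), Kdr (1.66) and Cdh5 (1.01) were past 2-fold higher, as were 7.48% of all and 8.26% of expressed genes, and Flt1 (0.81), Tek (0.73) and Pecam1 (0.60) followed. Vwf (-1.77) was past 2-fold lower, as were 17.2% of all and 11.7% of expressed genes, Eng was at -0.48 and Tie1 at -0.0061.

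**Figure D5:**
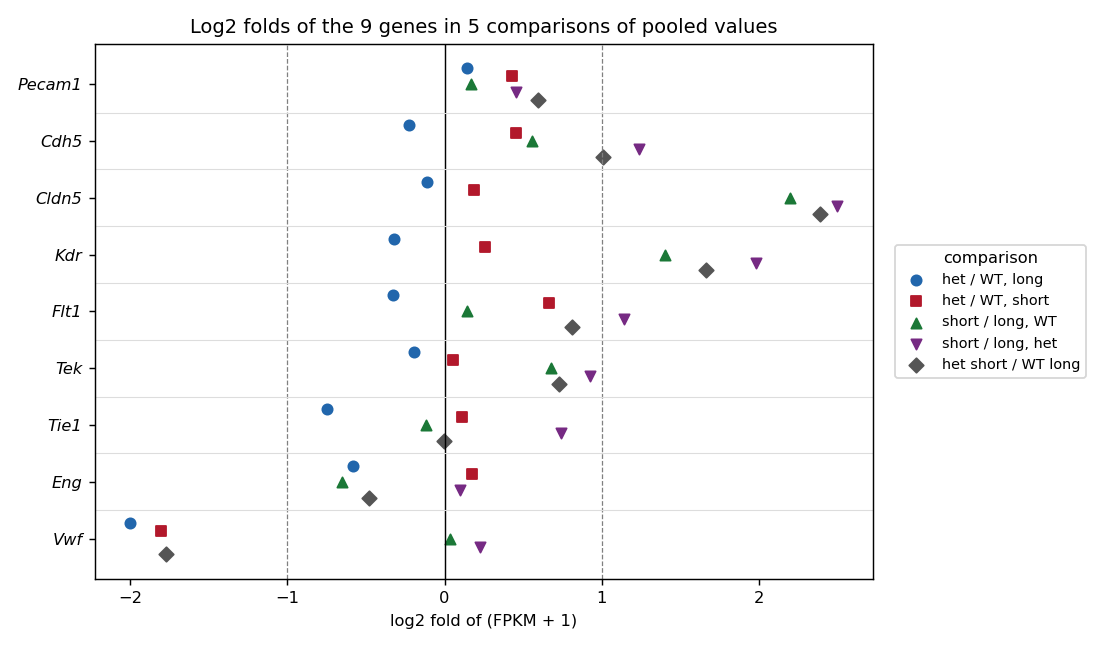
Log2 folds of FPKM + 1 of the 9 genes (rows) in 5 comparisons of pooled values (symbols), with dashed lines at 2-fold in each direction. Comparisons with a group in common share its values and are not independent; the symbols for short over long telomeres lie farthest right for Cldn5 and Kdr, and those for heterozygous over wild type farthest left for Vwf.

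Other endothelial genes took part in these differences. On a list of 24 other endothelial markers, 24 were higher with short than with long telomeres in heterozygous valves and 16 in wild type valves, with median log2 folds of 1.12 and 0.39. For heterozygous over wild type valves the list's median was 0.47 with short and -0.27 with long telomeres. The authors' deposited table called 2 of the 24, both higher with both changes than with neither: the apelin receptor Aplnr, at 20.3 against 2.54 FPKM, and thrombomodulin, Thbd, at 215 against 50.6 FPKM. Myct1 was at 58.3 and 33.3 FPKM in heterozygous and wild type short-telomere valves, and at 13.3 and 24.8 FPKM in heterozygous and wild type long-telomere valves. Ushbp1 was highest in wild type short-telomere valves at 17.2 FPKM and lowest in heterozygous long-telomere valves at 3.52 FPKM. Set against this list's own median, the 9 genes were not uniformly higher with short telomeres. Their median relative to it was -0.19 in heterozygous and -0.23 in wild type valves, and the genes that stayed above 0 in both genotypes were Cldn5, Kdr and Cdh5. Summed over the 24 markers, the level was 1342 and 944 FPKM in heterozygous and wild type short-telomere valves, against 669 and 691 FPKM in heterozygous and wild type long-telomere valves.

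Of 19 endothelial transcription factors, none was called in the authors' deposited table. Those with the widest range were Sox17, Hhex, Lyl1 and Foxc2. Sox17, an arterial and endocardial factor, stood at 13.2 and 3.73 FPKM in heterozygous and wild type short-telomere valves, and at 3.74 and 2.25 FPKM in heterozygous and wild type long-telomere valves. Hhex, a homeobox factor, was lowest in wild type short-telomere valves at 2.39 FPKM, against 9.45 to 11.2 FPKM elsewhere. Lyl1, a factor of blood and endothelial cells, was highest in wild type long-telomere valves at 15.7 FPKM. Foxc2, which is needed for valves of lymphatic vessels, was at 6.31 and 16.6 FPKM in heterozygous and wild type short-telomere valves, and at 4.42 and 11.1 FPKM in heterozygous and wild type long-telomere valves, an order between the genotypes like that of Vwf.

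The genes whose 4 values most resembled the mean course of the 9 genes, by Euclidean distance between centred log2(FPKM + 1) values over the 4 groups, were Gja1, Cpeb2, Gnaq, Rab33b and Emcn, among 6101 named expressed genes. Gja1, which encodes connexin 43, was at 55.9, 52.3, 25.5 and 38.8 FPKM in heterozygous short-telomere, wild type short-telomere, heterozygous long-telomere and wild type long-telomere valves, at a distance of 0.078. Emcn, the endothelial sialomucin endomucin, was at 35.9, 32.4, 16.3 and 20.4 FPKM in the same groups, at a distance of 0.17. Of the 9 genes themselves, Tek (0.21) and Cdh5 (0.36) lay nearest their mean course, and Vwf (1.81), Cldn5 (1.61) and Eng (1.04) farthest from it. With 4 values per gene, such likeness is a description of these pools.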

How the data were processed

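RNA came from 3 leaflets per mouse, treated with collagenase for 20 minutes at 37 °C, amplified from random and poly-T primers (NuGen Ovation RNA-seq V2) and, 4 libraries to a lane, read as paired 100 bp ends, per the labels' protocols. Per the submitters' processing notes, FastQC, TopHat, SAMtools, Picard and mm9 were involved, with no version stated. What tool, annotation and test gave the values is not given in the sources used here. A table deposited by the authors has 1 pooled FPKM for each gene in each group, per the file headers, and 5 columns of 0 or 1 read here as their calls (unit other). Columns 8 and 9 carry the same header, which names heterozygous against wild type valves with short telomeres. Column 8 was read here as the same comparison with long telomeres. Its called genes differed by at least 4.67-fold in that pair, against 1.17-fold in the next best pair. All calls given for heterozygous against wild type with long telomeres rest on this reading. Each call column was assigned to the 1 pair of groups in which every called gene differed by at least 4.25-fold.

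Log2 folds are log2(FPKM + 1) of 1 group minus the other. Past 2-fold means at least 1 on that scale. Code was tested on simulated data. Genes named beside the 9 are ligands, receptors, called genes and the 4 of a list with the widest range, of which 1 is not reported here; Myl7 and the other heart muscle genes, Mmrn1, Clec14a and the genes of the closing paragraph were added after their values were seen. The members and lists were chosen with earlier results of these data known. No per-library values were analysed, so the planned test in case of such values was not run. Protein sequences were not used here, so the planned protein comparison was left out. Promoters are from RefSeq, GRCm38.p6. Alternatives were a pseudocount of 0.1, a minimum mean of 10 FPKM, median scaling, rescaling without mitochondrial genes, leaving out Pecam1 and Vwf, and, chosen after seeing the data, subtracting the median of other endothelial markers. Tools were pandas 2.3.3 and numpy 2.4.6 under Python 3.11.15, with figures by matplotlib 3.10.9.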

Additional observations from a re-analysis of the deposited data

How the results depend on the processing

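With 1 pooled value per group, a log2 fold or median was taken as unmoved when it changed by less than 1.5-fold, and no alternative could leave out a mouse. No paired analysis was possible because the table holds 1 pooled value per group, with no columns per replicate. The pseudocount of 0.1 changed the sign of 0 of 45 single log2 folds, and so did the minimum mean of 10 FPKM for the 40 it kept. Median scaling turned Tie1 in short over long telomeres in wild type (-0.12 as deposited) and in both changes over neither, and rescaling without mitochondrial genes turned the second of these (-0.0061 as deposited). The deposited FPKM of all genes summed to 590290 and 583151 in heterozygous and wild type short-telomere valves, and to 416875 and 427784 in heterozygous and wild type long-telomere valves. Median scaling also made heterozygous long-telomere valves the lowest group for Eng. Median scaling raised the median log2 fold of the 9 genes to 1.34 for short over long telomeres in heterozygotes, 0.44 for the same in wild type and 1.03 for both changes over neither. Genes past 2-fold numbered 4 as deposited, 6 with median scaling and 3 with the minimum mean of 10 FPKM, both for short over long telomeres in heterozygotes and for both changes over neither. Without mitochondrial genes they numbered 5 and 4. The number of genes past 2-fold for short over long telomeres in wild type was 1 with the minimum mean of 10 FPKM, which removes Cldn5, and 2 as deposited. It was 0 for heterozygous over wild type in each telomere setting without Pecam1 and Vwf. Relative to the median of the 24 other endothelial markers, the median of the 9 genes was -0.19 for short over long telomeres in heterozygotes, with 2 genes past 2-fold, -0.049 for both changes over neither, and -0.16 for the difference of log2 folds between telomere settings; 20 of 45 single log2 folds changed sign. Within-group ratios between genes do not depend on the scaling.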

Other observations

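Of 5 capillary markers, 5 were higher with short than with long telomeres in heterozygous valves and 4 in wild type valves, where Aqp1 was lower. Gpihbp1, which anchors lipoprotein lipase on capillary walls, stood at 55.6 and 34.4 FPKM in heterozygous and wild type short-telomere valves, against 14.2 and 4.26 FPKM in heterozygous and wild type long-telomere valves. Cd36, a fatty acid transporter of capillaries, platelets and macrophages, was at 381 and 351 FPKM in heterozygous and wild type short-telomere valves, against 111 and 53.0 FPKM in heterozygous and wild type long-telomere valves, and the authors' deposited table called it higher with short telomeres in wild type and with both changes over neither. Fabp4, which adipocytes and macrophages also make, was at 626 and 278 FPKM in heterozygous and wild type short-telomere valves, against 165 and 103 FPKM in heterozygous and wild type long-telomere valves. Aqp1, a water channel, was at 166 and 98.7 FPKM in heterozygous and wild type short-telomere valves, and at 133 FPKM in each long-telomere group, and Car4 from 1.93 to 7.16 FPKM. Of 5 lymphatic markers, 4 were higher with short than with long telomeres in each genotype. In wild type Flt4 and Mmrn1 were almost level, with log2 folds of 0.017 and 0.067. Lyve1 was at 21.6 and 23.1 FPKM in heterozygous and wild type short-telomere valves and at 5.98 and 15.4 FPKM in heterozygous and wild type long-telomere valves. Pdpn alone was lower in both short-telomere groups, at 6.22 and 7.39 FPKM, against 13.5 and 16.9 FPKM in heterozygous and wild type long-telomere valves.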
